A study of Mus musculus with 12 samples.

Results

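The 34 genes described here encode subunits of the proteasome: 17 of its core particle (Psma1 to Psma7 and Psmb1 to Psmb10) and 17 of its regulatory particle (Psmc1 to Psmc6 and 11 Psmd genes). They were taken by symbol from the 24062 genes of the count table, and all 34 were found there. The oocytes came from 6 female mice on each of the feeds compared, a high-fat diet (HFD) and a control diet (CD), which were given for 9 weeks. The females then mated with vasectomized males, all on the control feed during mating, and oocytes were taken on day 0.5 after coitus. Each of the 12 libraries, 6 per diet, was made from 4 pooled oocytes. The labels give no strain, age or genotype, do not say which female gave which pool, and use the same product code for both feeds, with the word modified added for the HFD. P-values therefore measure the spread between these pools, which may in part be technical.

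The proteasome is the cell's main protease for proteins tagged with ubiquitin. Its core is a barrel of stacked rings: the alpha rings (Psma genes) gate the entrance, and the beta rings (Psmb genes) enclose the cutting sites, which Psmb5, Psmb6 and Psmb7 carry in most cells and Psmb8, Psmb9 and Psmb10 replace in the immunoproteasome. The regulatory particle caps the barrel. Its ATPase ring (Psmc genes) unfolds substrates, and its other subunits (Psmd genes) bind ubiquitin, remove it or hold the particle together. Fully grown oocytes make little new RNA and live from stored messages, and protein breakdown by the proteasome is known to be needed for meiosis to proceed, for example when cyclin B and securin are destroyed.

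The depth, as the sum of gene counts, ran from 8409491 to 13793598 in HFD libraries and from 8556396 to 10477316 in CD libraries. The 4 libraries HFD replicates 1, 2, 4 and 6 held only even counts, and the share of all reads in the count table that aligned to more than 1 place ran from 26.8% to 35.7% in HFD and from 18.6% to 26.5% in CD, so the diets did not overlap in it; the part of multiple alignment in the results was not tested. HFD replicate 3 had 14755 genes with a count, against at most 13052 in any other library. Levels are given in CPM, the usual depth-scaled read count, with depth adjusted by trimmed-mean (TMM) factors. Such a level is relative to the other messages of the pool and does not give the amount of RNA per oocyte. It also cannot tell whether all 4 oocytes of a pool differ or only some. All 11 oocyte markers passed the filter on low counts. Gdf9 had a median of 4626 CPM in HFD (554 to 9613) and 5553 CPM in CD (542 to 7930). Of 12 cumulus and granulosa markers, Amh and Ptx3 were at 0 in every library, and 6, these included, stayed under 1 CPM. Their sum ran from 98.1 to 1805 CPM in HFD and from 130 to 1345 CPM in CD, and without Serpine2 from 19.3 to 47.6 and from 31.5 to 56.1 CPM. The 6 blood and immune markers summed to at most 0.660 CPM in HFD and 3.51 CPM in CD, with Hba-a1, Hbb-bs and Cd3e at 0. The 6 oviduct markers summed to between 2.38 and 28.4 CPM in HFD and between 4.62 and 10.6 CPM in CD.

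In the control pools, messages for subunits that occur in equal numbers in the assembled particle differed widely in their counted level. Levels were compared per kb of transcript, with lengths of the principal transcripts in GENCODE M21. Among the 14 core genes other than the immunoproteasome ones, the CD median ran from 0.583 CPM per kb for Psmb5 to 658 CPM per kb for Psma7, a ratio of 1129. The next highest were Psmb6 (262 CPM per kb), Psmb3 (199), Psma1 (141) and Psma2 (140). Psmb7 (0.597), Psma3 (4.14), Psmb4 (5.28) and Psmb1 (5.49) lay near the low end with Psmb5. In the regulatory particle the CD medians ran from 0.343 CPM per kb for Psmd13 to 175 for Psmd11, a ratio of 510. Psmd4 at 169 and Psmd1 at 142 were close to the top. Both ratios rest on few reads at the low end, with 3 to 10 counts per CD pool for Psmb5 and 0 to 14 for Psmd13. Exons of Psmd13 also overlap those of Sirt3 on the other strand, and reads of the overlap may not have been counted. The ATPase ring was less abundant, from 1.95 CPM per kb for Psmc2 to 37.8 for Psmc5. Neighbours in this order often overlapped: Psma1 ranged from 57.9 to 185 CPM per kb over the 6 CD pools and Psma2 from 101 to 239.

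**Figure D1:**
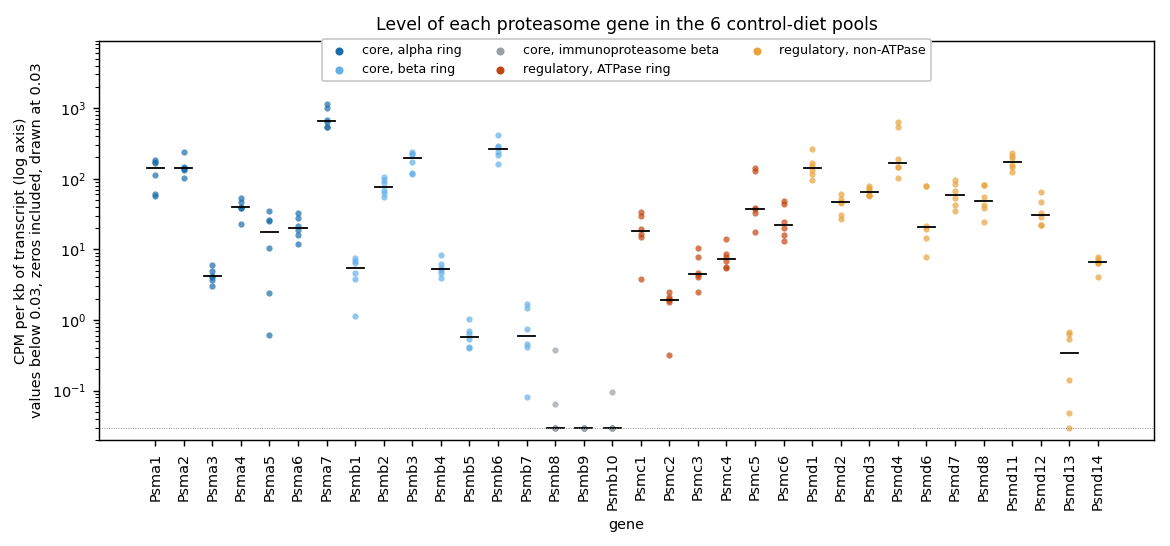
Level of each of the 34 genes in the 6 CD pools, as CPM per kb of transcript on a log axis, with 1 point per pool and a bar at the median; values below 0.03, zeros included, are drawn at 0.03. Psma7 stands highest with a median of 658 CPM per kb, while Psmb5, Psmb7, Psmd13 and the 3 immunoproteasome genes have medians below 1.

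The 3 constitutive catalytic subunits did not share a level. Psmb6, which carries the caspase-like site (chr11:70525367-70527858, mm10), ranged from 131 to 335 CPM in CD with a median of 209 CPM. Psmb5, with the chymotrypsin-like site (chr14:54614119-54618022), ranged from 0.360 to 0.943 CPM in CD, and Psmb7, with the trypsin-like site (chr2:38588036-38644087), from 0.0943 to 1.98 CPM. So the lowest CD pool for Psmb6 lay far above the highest for the other pair, per length as well (164 against 1.05 and 1.71 CPM per kb). Annotated processed pseudogenes resemble all 3 of these genes, and reads that fit both places may not have been counted, so these levels are uncertain. Exons of Psmb7 also overlap those of Nek6 on the other strand, and those of Psmb5 hold Mir686.

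Their immunoproteasome counterparts were hardly seen. Psmb9 had no read in any of the 12 libraries, where a count of 0 allows up to 3 counts, or 0.242 to 0.373 CPM depending on the library. Psmb8 had 14 counts in HFD replicate 1, 5 in CD replicate 4, 2 in HFD replicate 2 and 1 in CD replicate 5, with 0 elsewhere. Psmb10 had 9 counts in HFD replicate 3, 4 in HFD replicate 4 and 1 in CD replicate 4. These limits and intervals cover counting error only, as the reads carry no molecular identifiers. Exons of Psmb9 overlap those of Tap1 on the other strand, and those of Psmb8 overlap the antisense gene Gm20496. Reads of these overlaps may not have been counted. Psme1 and Psme2, which form the activator cap that often accompanies the immunoproteasome, reached at most 0.969 and 16.2 CPM in HFD and 0.541 and 2.61 CPM in CD.

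The first comparison asked whether the diets differed in these messages. Of the 34 genes, 29 passed the filter on low counts, 13 of the core and 16 of the regulatory particle. Psmb5, Psmb8, Psmb9, Psmb10 and Psmd13 did not. None of the 29 passed edgeR's quasi-likelihood test after Benjamini-Hochberg adjustment over the 9935 genes tested, where the share called was 0% (adjusted p from 0.0913 to 0.954 over the members). At an unadjusted p under 0.05 there were 14 members higher in HFD, against 13.4% of all genes tested, and 2 lower, against 8.89%. Of the 25 members to which DESeq2 gave an adjusted p, it called 5 higher (Psma3, Psma4, Psma6, Psmb2 and Psmb3, against 4.88% of genes) and none lower (2.41%), while limma-voom called none (0.352% of genes). With only the libraries that held odd counts, HFD replicates 3 and 5 against 6 CD pools, edgeR called 8 members higher, against 4.02% of genes. None was called lower, against 0.0177%. The 8 were Psma3, Psma6, Psmb1, Psmb2, Psmb4, Psmb7, Psmc2 and Psmb5, which passed the filter in this fit. HFD replicate 3 was the highest library for each. HFD replicate 5 lay above every CD pool for Psma3, Psma6, Psmb2 and Psmb5. For Psmb1, Psmb4 and Psmc2 it lay within the CD range, and it had no read of Psmb7. Without HFD replicate 3 the 14 became 9, and without HFD replicate 1, CD replicate 3 or CD replicate 5 the 2 became 1.

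The higher values sat mainly in the core. All 13 tested core genes had a log2 fold change (HFD minus CD) above 0, against 51.8% of all genes. Of the 13, 10 are shorter than 1500 nt, and 88.0% of all tested genes of that length were above 0. At an unadjusted p under 0.05, 11 of the 13 were higher, against 13.4% of all genes; that share was not counted among short genes alone. The core median was 1.29. Over all genes tested the median was 0.04. In the regulatory particle 13 of 16 were above 0, and the median was 0.65. At an unadjusted p under 0.05, 3 were higher and 2 lower (13.4% and 8.89% of all genes). Without HFD replicate 3 the medians were 0.79 in the core and 0.27 in the regulatory particle. The difference of 0.64 between the medians over all libraries was 0.52 without HFD replicate 3, 0.17 without CD replicate 2, 0.22 without CD replicate 4, 0.32 without HFD replicate 4 and 1.07 without CD replicate 6. No test was made of these medians, since the genes are not replicates.

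**Figure D2:**
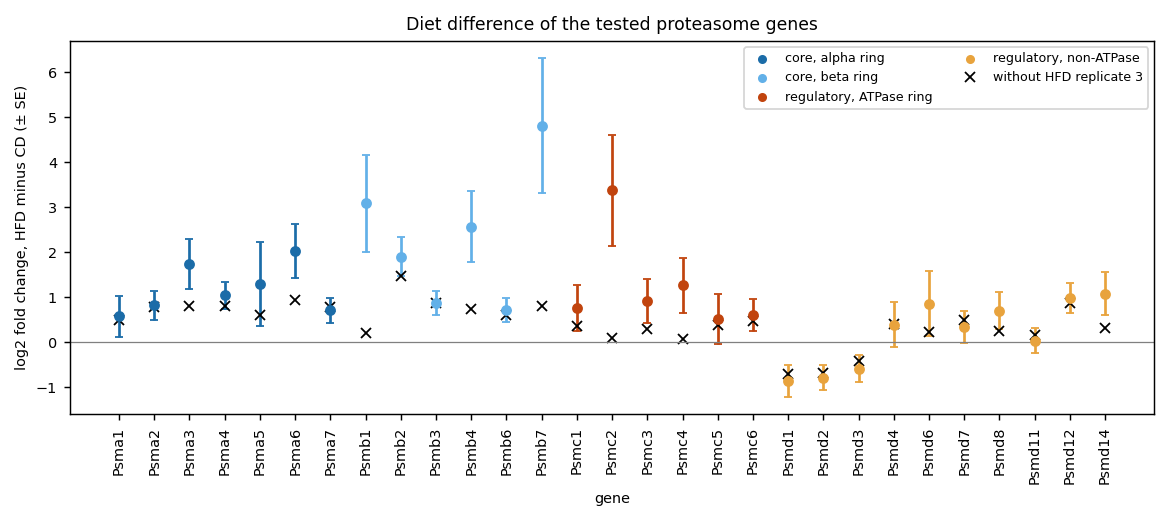
Log2 fold change (HFD minus CD) of the 29 tested genes with its standard error (bars) from edgeR with n = 6 per diet, and the value without HFD replicate 3 (crosses). All 13 core genes lie above 0 and Psmd1, Psmd2 and Psmd3 below it, and Psmb7, Psmc2, Psmb1 and Psmb4 drop most when HFD replicate 3 is left out.

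In the beta rings, Psmb2, a structural beta subunit without a cutting site (chr4:126677630-126709714), had the smallest p of all members. It ranged from 73.6 to 587 CPM in HFD with a median of 224 CPM, and from 47.4 to 91.2 CPM in CD with a median of 66.7 CPM. In 5 of 6 HFD pools it was above every CD pool, HFD replicate 2 being the exception. Its log2 fold change was 1.90 ± 0.42 (SE), or 1.46 without HFD replicate 3, with an edgeR adjusted p of 0.0913 (from 0.00364 to 0.473 over the alternatives). Psmb3, another structural beta subunit (chr11:97703399-97713500), ranged from 155 to 337 CPM in HFD and from 90.3 to 182 CPM in CD, again with 5 HFD pools above every CD pool. The log2 fold change of Psmb3 was 0.87 ± 0.27 (edgeR adjusted p = 0.105). Psmb6 ranged from 232 to 462 CPM in HFD with a median of 353 CPM, and 3 of these pools lay above every CD pool. At 0.71 ± 0.27 (edgeR adjusted p = 0.147), the log2 fold change of Psmb6 was the smallest of the tested beta genes.

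In the alpha rings, Psma4 (chr9:54950790-54958030) was the only member whose diets did not overlap. It ranged from 63.4 to 166 CPM in HFD with a median of 82.0 CPM, and from 26.4 to 61.8 CPM in CD with a median of 45.9 CPM. Of all genes tested, 1.17% did not overlap in this direction and 1.28% in the other. The log2 fold change of Psma4 was 1.04 ± 0.30 (edgeR adjusted p = 0.0956, from 0.0271 to 0.693 over the alternatives). Exons of Psma4 overlap those of AY074887 on the other strand, and the tagmentation kit used does not mark strand, so reads of the pair cannot be told apart. Psma6 (chr12:55384222-55418454) ranged from 20.9 to 330 CPM in HFD and from 12.3 to 33.7 CPM in CD. HFD replicate 3 held the 330 CPM and the next pool 60.9 CPM, and the log2 fold change of 2.03 ± 0.60 (edgeR adjusted p = 0.0970) was 0.93 without it. Psma1 (chr7:114264606-114276118), the core gene with the lowest log2 fold change at 0.57 ± 0.45 (edgeR adjusted p = 0.477), ranged from 60.1 to 335 CPM in HFD and from 69.6 to 223 CPM in CD, with 4 HFD pools above every CD pool and HFD replicate 1 below all of them.

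In the regulatory particle all 6 ATPase genes had values above 0, from 0.52 for Psmc5 to 3.37 for Psmc2, and so had 7 of the 10 other subunits tested. Without HFD replicate 3 the medians were 0.32 for the ATPase genes and 0.24 for the others. Psmc2 (chr5:21785283-21803787) ranged from 0.551 to 180 CPM in HFD with a median of 3.78 CPM, and from 0.575 to 4.51 CPM in CD with a median of 3.47 CPM. Its log2 fold change of 3.37 ± 1.23 (edgeR adjusted p = 0.138) came from HFD replicate 3 and was 0.08 without it. Psmd12, a subunit of the lid (chr11:107479484-107504362), ranged from 78.6 to 199 CPM in HFD with a median of 137 CPM and from 41.9 to 122 CPM in CD with a median of 59.0 CPM. In 4 HFD pools it exceeded every CD pool, and its log2 fold change was 0.98 ± 0.34 (edgeR adjusted p = 0.121), or 0.87 without HFD replicate 3.

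Psmd1, Psmd2 and Psmd3 were the 3 members below 0. Psmd1 and Psmd2 encode the largest subunits, the scaffolds on which ubiquitin receptors sit, and Psmd3 a lid subunit. Psmd1 (chr1:86064387-86139151) ranged from 96.1 to 403 CPM in HFD with a median of 299 CPM, and from 295 to 811 CPM in CD with a median of 440 CPM. All 6 HFD pools lay below the CD mean, and the diets overlapped, with HFD replicates 2, 4 and 6 above the lowest CD pool. Its log2 fold change was -0.86 ± 0.36 (edgeR adjusted p = 0.182). Psmd2 (chr16:20651652-20663414) ranged from 46.2 to 100 CPM in HFD with a median of 74.2 CPM, and from 79.7 to 183 CPM in CD with a median of 138 CPM. It too was below the CD mean in 6 of 6 HFD pools, and the log2 fold change was -0.79 ± 0.28 (edgeR adjusted p = 0.124). Psmd3, named after its values were seen, was below every CD pool in all HFD pools but replicate 2, and its log2 fold change was -0.59 ± 0.31 (edgeR adjusted p = 0.272). HFD replicate 3 was the lowest of the 12 libraries for all 3 genes, and without it the values were -0.70 for Psmd1, -0.69 for Psmd2 and -0.43 for Psmd3. Exons of Psmd1 overlap those of Htr2b on the other strand and of Gm21972 on the same strand, and those of Psmd3 overlap Gm12356 on the other strand.

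Transcript length moved with these differences. The tested core genes had a median length of 1165 nt and the regulatory genes of 1614 nt, while Psmd1 and Psmd2 measured 3112 and 2961 nt. Across all tested genes the median log2 fold change was 0.90 below 1500 nt, 0.14 from 1500 to 2500 nt and -0.23 above 2500 nt. In these bands 88.0%, 58.4% and 37.2% of genes were above 0. The 10 core genes below 1500 nt had a median of 1.17 and the 4 regulatory genes of 0.69. Between 1500 and 2500 nt the 10 regulatory genes had a median of 0.73. Above 2500 nt the values were 0.82 for Psma2 and 1.74 for Psma3, against -0.86 for Psmd1 and -0.79 for Psmd2. Without HFD replicate 3 they were 0.79, 0.80, -0.70 and -0.69. Over the 29 members, log2 length and fold change had a Pearson r of -0.33 and a Spearman rho of -0.35, or -0.60 and -0.57 without HFD replicate 3. Over 9486 genes and all libraries they were -0.45 and -0.43; all points share the same libraries. When the trend of each library with length was taken out, the medians were 0.77 in the core and 0.34 in the regulatory particle, and Psma1, Psma7, Psmb3, Psmb6 and Psmd4 had values of -0.09, -0.15, -0.13, -0.28 and -0.03. With HFD replicate 3 left out as well, the medians were 0.21 and 0.05, and these 5 genes had -0.04, 0.01, -0.0016, -0.21 and 0.06. The part of length in the result was not otherwise tested.

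**Figure D3:**
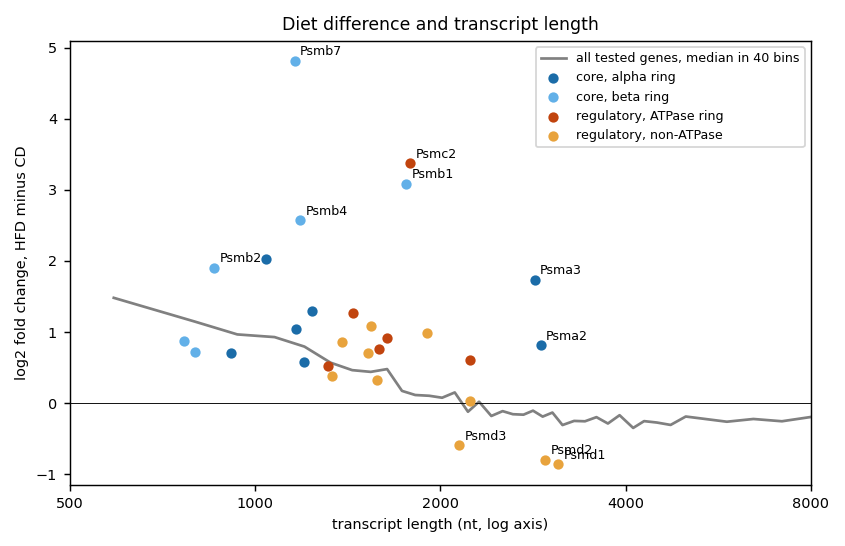
Log2 fold change (HFD minus CD) of the 29 tested genes against transcript length on a log axis, with the median of all tested genes in 40 bins of equal size as a line. The line falls with length; most core genes lie at the short end, and Psma2 and Psma3 stand above the line where Psmd1 and Psmd2 stand below it.

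The second comparison was by pool. HFD replicate 3 was the highest of the 12 libraries for 17 of the 29 tested members, against 22.6% of all genes tested, and the lowest for 5 (Psmd1, Psmd2, Psmd3, Psmd7 and Psmd11), against 16.7%. Its largest ratios to the next library were for scarce messages. Psmb7 held 152 CPM there, 46.2 times the next library, and ranged from 0 to 3.30 CPM in the other 11, so that its log2 fold change of 4.81 ± 1.51 (edgeR adjusted p = 0.105) was 0.80 without HFD replicate 3. Psmc2 held 180 CPM, 23.9 times the next. Psmb1, a structural beta subunit, held 399.5 CPM against 2.01 to 20.7 CPM, and Psmb4, also structural, 181 CPM against 4.71 to 19.4 CPM. Even Psmb5 stood at 12.1 CPM, 7.35 times the next library. Abundant members varied: Psmb6 was highest in that pool by a ratio of 1.06, Psmb3 ranked 4th of 12 and Psma7 7th. Of the oocyte markers, Zp1, Zp2, Zp3, Ooep and Npm2 were also highest there, with Zp2 and Zp3 at 1058 and 3931 CPM. The other oocyte markers were not: Nlrp5 and Mos ranked 2nd of 12, Bmp15 3rd, Gdf9 and Dppa3 8th and Oosp1 9th. The cumulus and granulosa sum was 324 CPM, inside the range of the other pools.

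A second set of pools stood apart in both diets. Mos, the kinase that holds the egg at metaphase, had 9.37 CPM in HFD replicate 1, 4.04 in HFD replicate 2, 3.83 in CD replicate 2 and 3.97 in CD replicate 4, against 146 to 1697 CPM in the other 8. Of the other oocyte markers, Gdf9, Zp3 and Ooep were also lowest in those 4 pools, and the rest were not. Gdf9 held 542 to 614 CPM there, against 4587 to 9613 CPM in the other 8. Serpine2, of the cumulus and granulosa list, was lowest there too. Among the 11 libraries without HFD replicate 3, these 4 were the lowest for 9.63% of all genes tested. Seen after the values were known, several proteasome genes followed the same line. Psmd4, a ubiquitin receptor of the regulatory particle (chr3:95032694-95042614), held 967, 766, 724 and 838 CPM in those 4 pools and 135 to 475 CPM in the other 8. Psmc5, an ATPase (chr11:106256154-106263120), held 222, 183, 189 and 172 CPM there, against 23.0 to 63.1 CPM in the others apart from HFD replicate 3, which held 182 CPM. Psmd6, a lid subunit (chr14:14112174-14120984), held 135, 97.7, 108 and 111 CPM, against 10.7 to 37.4 CPM, with HFD replicate 3 at 251 CPM. For each of these genes both diets had pools at both levels, so that the spread within a diet exceeded the difference between the diets (edgeR adjusted p = 0.689 for Psmd4, 0.617 for Psmc5 and 0.516 for Psmd6).

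Of the core genes, 2 were lowest in these pools, and both are named after their values were seen. Psma5 (chr3:108256926-108279974) held 5.49, 3.12, 0.767 and 2.98 CPM in the same 4 pools, and 13.2 to 147 CPM in the other 8; its exons overlap an antisense gene, 1700010K24Rik. Psma1 held 60.1, 82.8, 69.6 and 73.2 CPM, and 136 to 335 CPM in the other 8. Among the 11 libraries without HFD replicate 3, these 4 were the highest for 6 of 16 tested regulatory genes (Psmc1, Psmc3, Psmc5, Psmc6, Psmd4 and Psmd6) and for 0 of 13 core genes, against 9.45% of all genes tested. They were the lowest for 2 core genes and 0 regulatory genes, against 9.63%, and the other 11 core genes showed neither order. Psmd11, a lid subunit, ranged from 187 to 617 CPM over the 12 libraries without such a split.

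**Figure D4:**
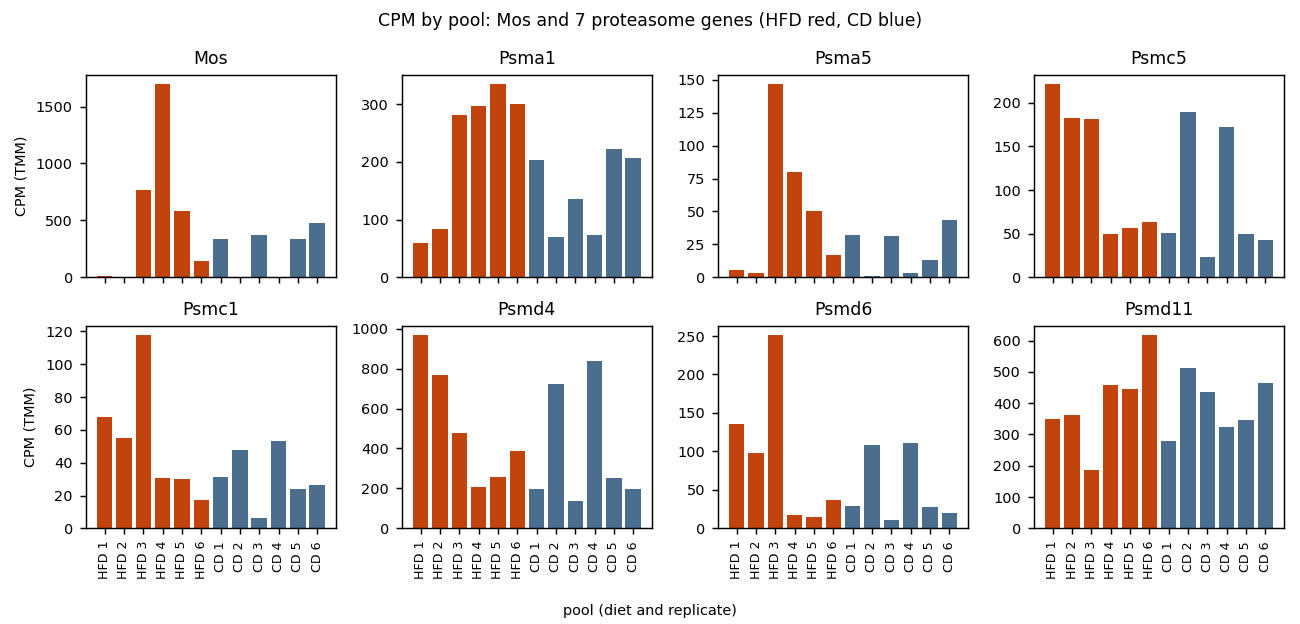
CPM of Mos and 7 proteasome genes in each of the 12 pools (HFD red, CD blue), with 1 bar per pool and each axis starting at 0. HFD replicates 1 and 2 and CD replicates 2 and 4, with Mos below 10 CPM, hold the 4 highest values of Psmd4 and the 4 lowest of Psma1 and Psma5.

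With those 4 pools left out, 4 pools remained per diet, and no member passed in edgeR (0% of 9914 genes did). The median was then 1.32 in the core and 1.09 in the regulatory particle, and 0.88 and 0.44 when HFD replicate 3 was left out too, where 0.108% of genes passed and again no member. Summed per kb, core messages came to 1712 to 4121 CPM per kb in HFD and 1212 to 2290 in CD, and 5 HFD sums exceeded every CD sum, HFD replicate 2 being the exception. In CD the short genes Psma7, Psmb6, Psmb3 and Psma1 weigh most in this sum. With the length trend removed, their log2 fold changes were -0.15, -0.28, -0.13 and -0.09, and that of Psma2, the next in level, was 0.99. The sums were not corrected for that trend. Regulatory messages came to 887 to 1563 CPM per kb in HFD and 766 to 1496 in CD. The ratio of core to regulatory sums was 1.98, 1.16, 0.962 and 1.07 in HFD replicates 1 and 2 and CD replicates 2 and 4. It was 2.70 to 3.57 in the other HFD pools and 1.45 to 2.57 in the other CD pools. The regulatory sum includes the abundant Psmd4, already named for its high values in those 4 pools, so this ratio is no separate sign of the pattern. All 34 genes together took 0.448% to 0.858% of gene counts in HFD and 0.338% to 0.455% in CD, and without HFD replicate 3 the highest HFD share was 0.514%.

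**Figure D5:**
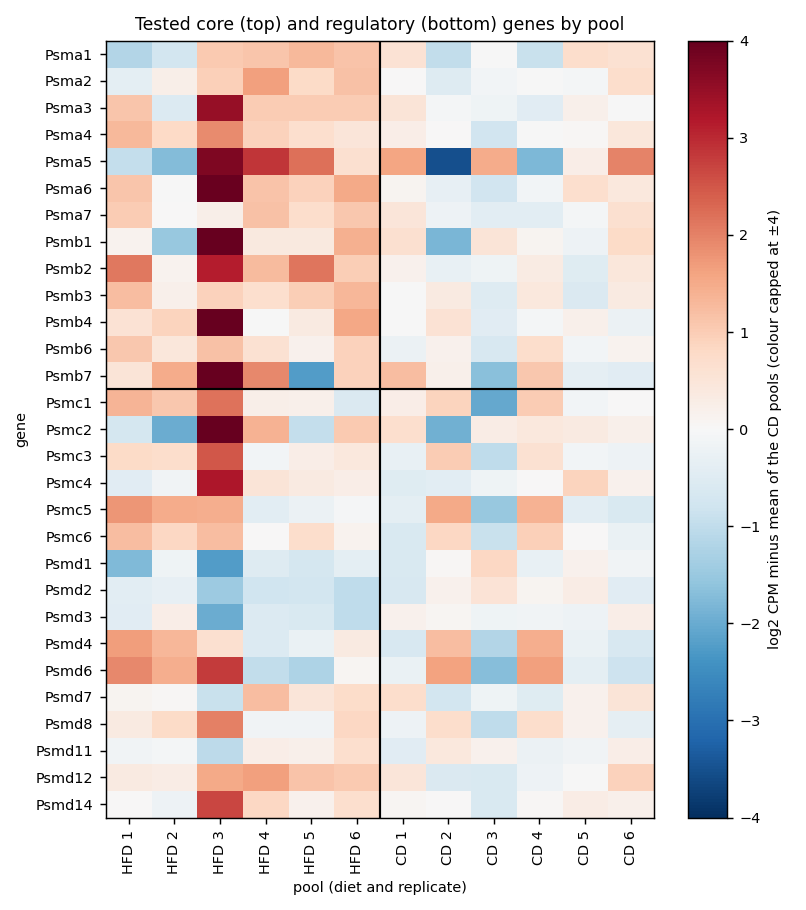
Deviation of log2 CPM from the CD mean for the 29 tested genes (rows, core above the line and regulatory particle below) in the 12 pools (columns), with colour capped at ±4. HFD replicate 3 holds most of the darkest red cells, and the rows of Psmc5, Psmd4 and Psmd6 are red in HFD 1 and 2 and in CD 2 and 4.

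Since several regulatory genes shared a pattern over the pools, the 250 bases before each start site were searched on both strands, in RefSeq promoters of build GRCm38.p6, which is the assembly of mm10. Promoters were found for 28 of the 34 genes, 14 of each particle. CCGGAAG, a core motif of ETS family factors, occurred in 10 of 30 promoters of these genes (33.3%), against 6.91% of 32851 promoters. It was found for 8 of 14 regulatory genes and 1 of 14 core genes (Psma6). Of the regulatory genes with the shared pattern, Psmc1, Psmc6, Psmd4 and Psmd6 had it, and Psmc3 and Psmc5 were not among the genes with it. Psmc2, Psmd2, Psmd11 and Psmd12 had it without the pattern. TGACNNNGC, the core of the antioxidant response element that Nfe2l1 binds at proteasome genes, occurred in 4 promoters (13.3%, against 10.2% of all). CCAAT occurred in 11 (36.7%, against 33.8%). A match is a run of letters and shows no binding. No set of promoters matched for base content or expression was compared, so these shares do not show what is particular to proteasome genes. The 5 windows with CCGGAAG that lie wholly before the annotated gene are shown with the match in capitals, 5′ to 3′ on the strand of the gene, where CTTCCGG is the match on the other strand.
Psmc2 (chr5:21785166-21785222, + strand): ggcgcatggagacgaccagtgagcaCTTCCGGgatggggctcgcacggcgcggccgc
Psmc6 (chr14:45329699-45329755, + strand): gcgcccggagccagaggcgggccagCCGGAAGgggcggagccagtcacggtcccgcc
Psmd2 (chr16:20651601-20651651, + strand): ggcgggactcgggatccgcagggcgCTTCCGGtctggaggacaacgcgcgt
Psmd4 (chr3:95042708-95042764, - strand): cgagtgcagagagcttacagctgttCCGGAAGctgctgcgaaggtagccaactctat
Psmd11 (chr11:80428579-80428614, + strand): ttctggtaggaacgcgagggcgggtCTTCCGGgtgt

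These genes did not move alike: Psmd4 and Psmc6 followed the split by pool, Psmd11 and Psmd2 did not, and Psmc2 stood apart in HFD replicate 3. The antioxidant response element core is shown for the core gene and the regulatory gene that were described above and whose windows lie before the annotated gene.
Psmb6 (chr11:70525323-70525356, + strand): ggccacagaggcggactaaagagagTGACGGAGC
Psmd12 (chr11:107479278-107479314, + strand): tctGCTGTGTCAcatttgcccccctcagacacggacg

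Other genes of the pathway were read from 6 lists of 49 genes in all, of which 48 were in the table and 40 were tested. None passed edgeR's adjustment, with 8 higher and 6 lower at an unadjusted p under 0.05 (13.4% and 8.89% of all genes), and DESeq2 called 2 higher and 4 lower (4.88% and 2.41% of all genes). Of these 40 genes 20 were above 0, against 51.8% of all genes, and the counts of the single lists are to be read against these same shares. Of the assembly chaperones, which build the core and the ATPase ring, 6 of 7 tested were above 0 and 4 higher at an unadjusted p under 0.05. The 7 had a median length of 1410 nt, and 88.0% of all tested genes below 1500 nt were above 0. Psmd10, which escorts the ATPases, had a log2 fold change of 1.52 ± 0.54 and Psmg4, a chaperone of the alpha ring, of 1.58 ± 0.60 (edgeR adjusted p = 0.131 and 0.147). Without HFD replicate 3 they were 0.89 and 0.77, and with the length trend removed Psmg4 was 0.03. The caps gave no gene under 0.05 among 3 tested. Psme3 and Psme4, activators that open the core without the regulatory particle, had -0.66 ± 0.31 and -0.51 ± 0.25 (edgeR adjusted p = 0.229 and 0.243), and Psme3 was -0.41 without CD replicate 3.

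Of 7 further subunits and bound proteins, 1 was higher and 1 lower at an unadjusted p under 0.05 (13.4% and 8.89% of all genes). Ube3c, a ubiquitin ligase that works on the proteasome, ranged from 13.7 to 32.3 CPM in HFD and from 34.0 to 78.4 CPM in CD, so the diets did not overlap. This held for no other of the 40 tested pathway genes, and in this direction for 1.28% of all genes tested. The log2 fold change of Ube3c was -1.14 ± 0.31 (edgeR adjusted p = 0.0930), and DESeq2 called it (adjusted p = 0.0128). Its transcript measures 5048 nt, and with the length trend removed the value was -0.91. Shfm1, the smallest subunit of the lid, ranged from 14.5 to 241 CPM in HFD and from 12.3 to 35.0 CPM in CD, and the log2 fold change was 1.95 ± 0.60 (edgeR adjusted p = 0.105), or 1.16 without HFD replicate 3. It held 14.5 and 15.1 CPM in HFD replicates 1 and 2, and 12.3 to 16.1 CPM over these and CD replicates 2 and 4. In the remaining pools apart from HFD replicate 3 it ran from 13.9 to 83.6 CPM.

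Among 11 tested ubiquitin shuttles and p97 partners, 8 were below 0 and 3 above it, where 51.8% of all genes were above 0. Their median length, where known, was 3484 nt, and 37.2% of all tested genes above 2500 nt were above 0. At an unadjusted p under 0.05, 3 were lower and 1 higher (8.89% and 13.4% of all genes). Ubqln1, which carries tagged proteins to the proteasome, had -1.15 ± 0.35 and Zfand2a, a stress-induced proteasome adaptor, -1.15 ± 0.35 (edgeR adjusted p = 0.0996 and 0.101). Both were below the CD mean in 6 of 6 HFD pools, and CD replicate 3 was the highest library for each, at 1311 and 243 CPM; without it they were -0.81 and -0.78. Of 6 tested genes of transcription control, Ngly1, which activates Nfe2l1 by removing its sugars, had -0.65 ± 0.26, and Keap1, the repressor of Nfe2l2, -1.59 ± 0.69 (edgeR adjusted p = 0.169 and 0.197), with Keap1 at 12.1 CPM or less throughout. Nfe2l1 itself, the factor that raises proteasome genes when the proteasome is short, had 0.35 ± 0.47 (edgeR adjusted p = 0.696), with 18.7 to 73.2 CPM in HFD and 10.3 to 57.5 CPM in CD.

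Of the 6 genes that supply or activate ubiquitin, 5 were above 0, against 51.8% of all genes. At an unadjusted p under 0.05, 2 were higher and 0 lower (13.4% and 8.89% of all genes). Rps27a, which encodes ubiquitin joined to a ribosomal protein, ranged from 0 to 119 CPM in HFD and from 0.0958 to 3.51 CPM in CD. HFD replicate 3 held the highest value and HFD replicate 2 had no read, so that the diets overlapped. The log2 fold change of Rps27a was 4.03 ± 1.40 (edgeR adjusted p = 0.125), or 0.74 without HFD replicate 3.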

How the data were processed

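RNA of pooled oocytes was copied to full-length cDNA and sequenced after tagmentation, per the labels' protocols. The authors deposited 1 table of raw counts per gene. Per the submitters' processing notes the tools were STAR, HTSeq 1.0.0 and DESeq2 1.0.19 with build mm10. Not given in the sources used here are the annotation and how reads were counted. The 5 tally lines of the counter that name no gene were kept out; they held 62.3% to 72.9% of the reads in each library. Samples were grouped by the diet in the labels, 6 libraries each.

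The members and gene lists were chosen with earlier results of these data known. The whole table was fitted with edgeR 4.0.16 (R 4.3.3): the default filter on low counts left 9935 genes, followed by TMM factors, a robust quasi-likelihood test of HFD against CD and Benjamini-Hochberg adjustment at 0.05. The alternatives used limma 3.58.1, DESeq2 1.42.0, other scaling and filters, the replicate block, odd-count libraries alone, all-even counts divided to their smallest step, each library left out, and the removal of each library's trend with transcript length. The 3 that left out sets of libraries, or combined this with length, were chosen after seeing the data. The scripts were tested on simulated data. Log2 CPM used a prior count of 2. Lengths came from the principal transcripts of GENCODE M21 and were found for 9486 tested genes. Exons of 10 members overlap those of another gene. Values over libraries are given for the 4 core and 4 regulatory genes of smallest p, the lowest fold change of each particle, the catalytic subunits and their immunoproteasome counterparts; of each other list, for the 2 tested genes of smallest p, and Nfe2l1. The values of 1 gene that this rule names are not reported here. Any other gene named, such as Psmd3, Psmd4, Psmd6, Psmc5 and Psma5, was chosen after its values were seen.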

Additional observations from a re-analysis of the deposited data

Results flagged for a closer look

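On the log2 CPM scale, in 8 cases 1 pool lay apart from the other 5 of its diet, with a gap to the nearest pool that was a larger share of the whole log2 range than Dixon's 95% critical value. This was checked in 58 sets of 6 pools, and chance flags about 1 in 20. HFD replicate 3 stood above its diet for 4 genes: Psmb4 at 181 CPM (6.36 to 19.4 in the other HFD pools), Psmc4 at 107 CPM (8.08 to 15.8), Psmd14, the deubiquitinase of the lid, at 63.1 CPM (8.45 to 17.4) and Psmc3 at 47.6 CPM (7.78 to 14.2). CD replicate 2 stood below its diet for Psmb1 at 2.01 CPM (6.69 to 13.2 in the other CD pools) and for Psmc2 at 0.575 CPM (3.22 to 4.51). CD replicate 3 stood below its diet for Psmc1 at 6.13 CPM (24.1 to 53.0) and for Psmd14 at 6.22 CPM (9.77 to 12.02). Exons of Psmc3 overlap those of Slc39a13 on the other strand.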

How the results depend on the processing

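Over 25 alternatives, 688 of 723 values of single members kept their direction and side of the threshold, 12 came under it and 23 changed sign; 19 of 29 members never changed sign. The number of members called was 5 in DESeq2, 8 with the odd-count libraries alone (HFD replicates 3 and 5 against 6 CD) and 0 with any single library left out; of other pathway genes 6 and 3 were called in the first 2. Members higher at an unadjusted p under 0.05 numbered 9 in limma-voom, 8 with the length trend removed, 3 with HFD replicate 3 also left out, and 9 to 15 with each library left out; members lower numbered 1, 0 and 1 to 3 in the last 3 of these. The core median was 2.18 with the odd-count libraries, 0.21 with length and HFD replicate 3 removed, and 0.79 to 1.61 with each library left out. The regulatory median was 1.09 without the 4 pools low in Mos, 0.050 with length and HFD replicate 3 removed, and 0.27 to 0.86 with each library left out, and the difference of the medians then ran from 0.17 to 1.07.

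With the length trend removed, the sign turned for Psma1 (-0.088), Psma7 (-0.15), Psmb3 (-0.13), Psmb6 (-0.28) and Psmd4 (-0.027). With HFD replicate 3 also left out it turned for Psma1 (-0.037), Psmb3 (-0.0016), Psmb6 (-0.21), Psmc2 (-0.057), Psmc4 (-0.26) and Psmd6 (-0.063). With the odd-count libraries it turned for Psmd4 (-0.18), Psmd7 (-0.19) and Psmd11 (-0.36). Psmd11 was also -0.12 with total counts, -0.0055 with no filter, and -0.13 to 0.17 with each library left out. The cause was not tested.

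The replicate numbers share nothing in the labels. Same-numbered pools had correlations of their deviations from -0.45 to 0.55, and not every HFD pool correlated best with its own number. With the number as a block, 8 members were higher at an unadjusted p under 0.05, 0 were called, and Psmd11 was -0.0096.

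Scarce genes such as Psmb5, Psmb7 and Psmd13 rest on few reads outside HFD replicate 3.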
